A study of Mus musculus with 12 samples.

Results

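FRA-1 ChIP-seq peaks were examined at 9 genes of cholesterol efflux and lipid sensing in mouse peritoneal macrophages: Abca1, Abcg1, Nr1h2, Nr1h3, Rxra, Pparg, Ppard, Mylip and Apoe. The genes were chosen by name, as 9 of 21887 protein-coding genes of the RefSeq GRCm38.p6 annotation. A peak was counted at a gene when it lay in the gene body or within 20 kb of it, or when the deposited table carried that gene's symbol. This rule found 142 of the 375170 peaks in all replicates, which fell into 107 of the 300608 merged regions of the genome.

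In ChIP-seq an antibody pulls down a chromatin protein with its DNA, here FRA-1 (encoded by Fosl1), an AP-1 transcription factor, and sequenced fragments that pile up form a peak. The adherent peritoneal macrophages came from 8-week-old mice. By the series design they received LPS or apoptotic cells (ratio 1:5) for 1 h, or stayed unstimulated, with 3 replicates per condition. The records differ on the LPS dose (1 µg/mL or 10 µg/mL), on the strain (129/C57Bl6 or C57Bl/6) and on whether the cells were elicited with thioglycollate 72 h before harvest. They also differ on the animals, since the sample records give the same 3 mouse names in every condition while the series design counts 9 animals. The records name no genotype, transgene or sort for any group. The chromatin was that of all adherent cells, and no expression data accompany it, so the cell type could not be checked against marker genes.

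The 9 genes belong to 1 sterol and fatty acid sensing circuit. Nr1h3 and Nr1h2 encode the liver X receptors LXRα and LXRβ, nuclear receptors that are activated by oxysterols and bind DNA together with a retinoid X receptor such as RXRα (Rxra). PPARγ (Pparg) and PPARδ (Ppard) are the fatty acid-activated partners of the same retinoid X receptor. Abca1 and Abcg1 encode membrane transporters that pass cholesterol to lipoprotein particles, Apoe encodes a lipoprotein component that macrophages secrete, and Mylip encodes a ubiquitin ligase that limits cholesterol uptake. These 4 are known LXR targets, and the circuit is active in macrophages that have taken up dying cells.

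The deposited files give peak positions and scores for each replicate but no reads, so the sequencing depth is unknown. The scale of the score is not given in the sources used here, a higher score is taken as a stronger peak, and the values run from about 50 to 3189. Replicates are numbered by their column in the deposited table, which names no mouse. Each replicate held 20981 to 28314 peaks in the unstimulated group, 39728 to 63010 in the LPS group and 31501 to 79474 in the apoptotic cell group. By their smallest peak the replicates formed a narrow class of 104 to 116 bp (unstimulated replicate 3, LPS replicates 1 and 3, apoptotic cell replicate 3) and a wide class of 158 to 172 bp (the other 5). Genome-wide, LPS replicates 1 and 3 had 24.2% of their merged regions in common, against 5.63% and 5.10% for the LPS pairs with replicate 2. For unstimulated replicate 3 this share was 13.2% with LPS replicate 1 and 11.9% with LPS replicate 3, but 5.45% and 6.33% within its own condition. Unstimulated replicates 1 and 2 shared 4.23%. Apoptotic cell replicate 3 shared 5.16% and 4.94% with replicates 1 and 2 of its condition, which shared 8.34% with each other, and 6.55% and 6.57% with LPS replicates 1 and 3. Sharing thus did not follow the conditions throughout, and counts that changed when a replicate was left out are given with and without it. The part of peak width in the differences below was not tested except where values within a class are given.

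No FRA-1 peak of any replicate overlapped a listed promoter of these genes. RefSeq lists 14 promoters for 8 of the 9 genes, each from 250 bases before to 50 bases after a start site, and none for Abcg1. Of all 32851 listed promoters, 1538 (4.68%) overlapped a peak of any replicate. The AP-1 motif TGANTCA was found in 7.81% of all listed promoters and the related CRE motif TGACGTCA in 1.79%, on either strand, and neither occurred in the 14 promoters of these genes. Matches to the 2 motifs cannot overlap each other. The promoters of Apoe, Ppard and Pparg are shown as those nearest to a peak, and that of Abca1 for the transporter whose peak numbers are compared below. The 250 bases before the start site are printed 5′ to 3′ on the strand of the gene, from the RefSeq GRCm38.p6 promoters. All letters are lower case, as no motif was found to mark.
Apoe, minus strand, upstream of chr7 position 19699188: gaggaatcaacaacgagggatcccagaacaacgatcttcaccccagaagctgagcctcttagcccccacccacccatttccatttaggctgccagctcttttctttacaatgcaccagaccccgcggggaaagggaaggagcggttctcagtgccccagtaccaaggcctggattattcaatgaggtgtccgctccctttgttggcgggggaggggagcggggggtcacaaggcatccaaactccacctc
Ppard, plus strand, upstream of chr17 position 28232754: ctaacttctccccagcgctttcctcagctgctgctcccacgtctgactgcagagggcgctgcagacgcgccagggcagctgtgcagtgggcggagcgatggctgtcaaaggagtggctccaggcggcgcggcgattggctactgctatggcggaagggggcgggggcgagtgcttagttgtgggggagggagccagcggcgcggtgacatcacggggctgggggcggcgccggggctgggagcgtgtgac
Pparg, plus strand, upstream of the internal start site at chr6 position 115422066: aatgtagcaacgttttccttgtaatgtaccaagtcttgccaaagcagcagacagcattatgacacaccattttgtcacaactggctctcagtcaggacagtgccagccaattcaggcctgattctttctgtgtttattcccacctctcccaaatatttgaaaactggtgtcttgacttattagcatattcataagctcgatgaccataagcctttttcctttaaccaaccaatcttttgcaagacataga
Abca1, minus strand, upstream of chr4 position 53159895: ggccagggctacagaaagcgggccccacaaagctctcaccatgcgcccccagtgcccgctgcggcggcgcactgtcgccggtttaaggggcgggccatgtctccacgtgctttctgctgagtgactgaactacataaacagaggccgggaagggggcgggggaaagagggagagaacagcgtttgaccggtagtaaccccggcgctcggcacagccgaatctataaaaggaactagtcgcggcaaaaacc
The nearest peak of any replicate lay 412 bp from the edge of this listed Apoe promoter, 1022 bp from that of Ppard, 1594 bp from that of Pparg and 3432 bp from that of Abca1. For the other listed genes the distance was 2129 bp (Nr1h3), 6342 bp (Nr1h2), 7256 bp (Rxra) and 15371 bp (Mylip). The peaks were thus away from the start sites: 89 of the 142 lay inside a gene body, 22 upstream of it and 26 downstream, and 5 beside Abcg1, for which no strand was listed. Whether they lay in exons or introns was not determined.

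The replicates had 14, 9 and 7 peaks at the 9 genes without stimulation, 17, 11 and 24 after LPS, and 16, 11 and 33 with apoptotic cells. The means were 10 ± 3.61, 17.3 ± 6.51 and 20 ± 11.5 (SD, n = 3 each), and the conditions overlapped. As a share of all peaks of the replicate the genes held 0.0553%, 0.0429% and 0.0247% without stimulation, 0.0370%, 0.0277% and 0.0381% after LPS, and 0.0392%, 0.0349% and 0.0415% with apoptotic cells. The mean shares were 0.0410 ± 0.0154%, 0.0342 ± 0.00570% and 0.0385 ± 0.00335%. The larger numbers after stimulation therefore went with the larger totals, and the shares of the 3 conditions also overlapped. Within the narrow class the mean number at the 9 genes was 7 without stimulation (n = 1), 20.5 after LPS (n = 2) and 33 with apoptotic cells (n = 1), and within the wide class 11.5 (n = 2), 11 (n = 1) and 13.5 (n = 2).

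**Figure D1:**
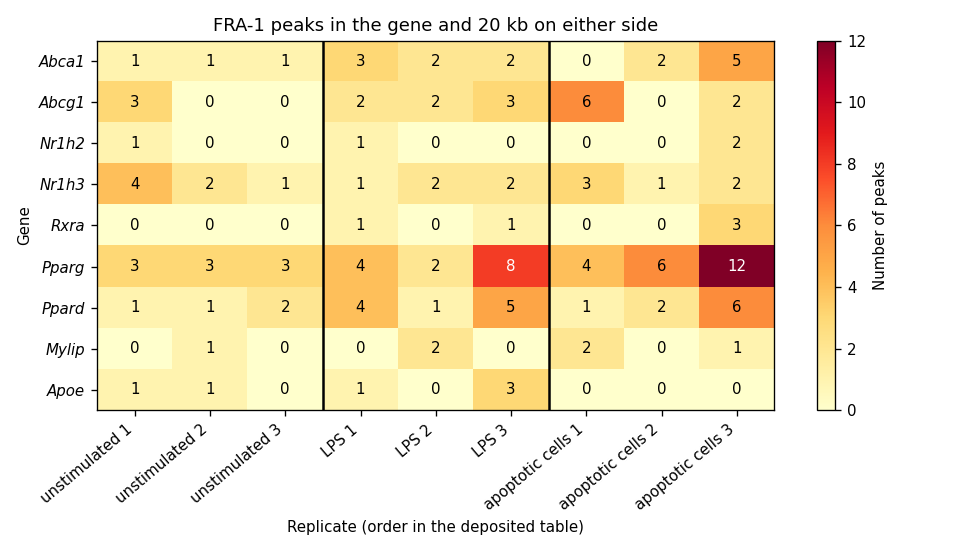
Number of FRA-1 peaks at each gene (rows) in each of the 9 replicates (columns), in the gene body and 20 kb on either side; colour repeats the printed number. Pparg had the most, up to 12 in apoptotic cell replicate 3, while Rxra had none in the 3 unstimulated replicates and Apoe none in the 3 apoptotic cell replicates.

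Among the receptors, Pparg carried the most peaks, 45 over the 9 replicates (gene body chr6:115360879-115490404). It had 3, 3 and 3 peaks without stimulation, 4, 2 and 8 after LPS, and 4, 6 and 12 with apoptotic cells. All apoptotic cell replicates thus lay above all unstimulated ones, while LPS replicates overlapped with them. The mean was 7.33 with apoptotic cells against 3 without stimulation (exact permutation test, two-sided, p = 0.1) and 4.67 after LPS (p = 0.7). A p of 0.1 is the smallest that 3 replicates against 3 allow, so no single gene could reach 0.05. As it is not stated which samples came from separate animals, these p-values measure only the spread between the deposited replicates. Per 10000 peaks of the replicate, Pparg had 1.18, 1.43 and 1.06 without stimulation, 0.869, 0.503 and 1.27 after LPS, and 0.980, 1.90 and 1.51 with apoptotic cells, and the groups overlapped in each comparison (exact permutation test, p = 0.5 for apoptotic cells against unstimulated). Within the wide class the mean Pparg number was 3 without stimulation and 5 with apoptotic cells, and within the narrow class 3 and 12. In a window of 5 kb Pparg had 3, 2 and 3 peaks without stimulation and 2, 2 and 12 with apoptotic cells, which overlapped. Under 3 other counting rules they did not overlap. With the centre of the peak in the 20 kb window the numbers were 3, 3 and 3 against 4, 6 and 12 (6.54% of all genes). With scores of at least 100 the numbers were 2, 2 and 2 against 4, 5 and 4 (3.94% of all genes were higher in this way). In a window of 50 kb they were 4, 4 and 4 against 7, 6 and 12 (10.0% of all genes).

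Ppard, the PPAR expressed in most tissues, had 23 peaks (gene body chr17:28232754-28301469). Its numbers were 1, 1 and 2 without stimulation, 4, 1 and 5 after LPS, and 1, 2 and 6 with apoptotic cells, so that every pair of conditions overlapped. In a window of 50 kb Ppard, in place of Abca1, was the 1 gene with more peaks in every LPS replicate (4, 3 and 7) than every unstimulated one (2, 2 and 2), as 15.5% of all genes did. Nr1h3 had 18 peaks (gene body chr2:91184061-91202829), with 4, 2 and 1 without stimulation, 1, 2 and 2 after LPS, and 3, 1 and 2 with apoptotic cells. Only 2 of the 18 peaks lay inside the Nr1h3 body, 12 lay downstream, and the window also covers parts of the neighbouring genes Madd, Acp2 and Ddb2.

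The other LXR, Nr1h2 (chr7:44549616-44553968), and the shared partner Rxra (chr2:27676445-27763319) were nearly empty. Nr1h2 had 1, 0 and 0 peaks without stimulation, 1, 0 and 0 after LPS, and 0, 0 and 2 with apoptotic cells, at 4 different places. Rxra had no peak in the unstimulated replicates, 1, 0 and 1 after LPS, and 0, 0 and 3 with apoptotic cells. All 5 Rxra peaks came from LPS replicates 1 and 3 and apoptotic cell replicate 3, which belong to the narrow class, and no 2 of them lay at the same place.

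Of the transporters, Abca1 was the gene whose numbers were higher in every LPS than every unstimulated replicate (gene body chr4:53030789-53159988). It had 1, 1 and 1 peaks without stimulation, 3, 2 and 2 after LPS, and 0, 2 and 5 with apoptotic cells. The LPS mean was 2.33 ± 0.577 against 1 ± 0 (exact permutation test, two-sided, p = 0.1), and that of apoptotic cells was 2.33 ± 2.52 (p = 0.7). Per 10000 peaks, Abca1 had 0.395, 0.477 and 0.353 without stimulation, 0.652, 0.503 and 0.317 after LPS, and 0, 0.635 and 0.629 with apoptotic cells, so that LPS and unstimulated replicates overlapped once scaled (exact permutation test, p = 0.6). Within the narrow class the mean Abca1 number was 1 without stimulation, 2.5 after LPS and 5 with apoptotic cells, and within the wide class 1, 2 and 1. The 3 unstimulated Abca1 peaks lay at 3 different places, with scores of 77.2, 104 and 91.1. Counting peaks with a score of at least 100, Abca1 had 0, 1 and 0 without stimulation and 1, 2 and 2 after LPS, and its replicates overlapped. They also overlapped in a window of 5 kb (1, 0 and 1 against 3, 1 and 1) and of 50 kb (2, 1 and 2 against 4, 4 and 2).

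Abcg1 (chr17:31057694-31117984) had 18 peaks, with 3, 0 and 0 without stimulation, 2, 2 and 3 after LPS, and 6, 0 and 2 with apoptotic cells. Counting peaks with a score of at least 100, Abcg1 in place of Abca1 had more in every LPS replicate (2, 2 and 3) than every unstimulated one (1, 0 and 0), as 6.92% of all genes did. The 6 peaks of apoptotic cell replicate 1 all lay inside the gene, with scores of 89.6 to 170, and none overlapped a peak of another replicate. Mylip (chr13:45389742-45411940) had 0, 1 and 0 peaks without stimulation, 0, 2 and 0 after LPS, and 2, 0 and 1 with apoptotic cells, at 6 different places. Apoe (chr7:19696244-19701310) had 1, 1 and 0 peaks without stimulation, 1, 0 and 3 after LPS, and none with apoptotic cells.

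**Figure D2:**
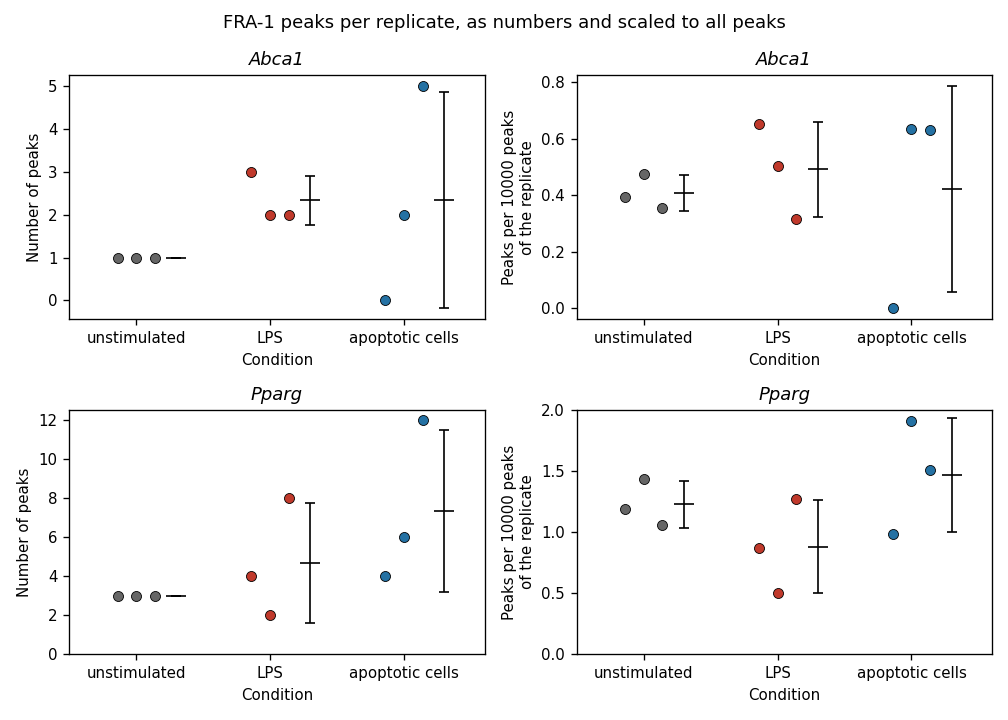
Peaks at Abca1 and Pparg in each replicate, as numbers (left) and per 10000 peaks of that replicate (right); points are replicates 1 to 3 from left to right, and bars show the mean ± SD of 3. Numbers at Abca1 after LPS (2 to 3) and at Pparg with apoptotic cells (4 to 12) lie above the unstimulated 1 and 3, and the scaled values overlap.

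Set against all protein-coding genes, these counts were near the background. That background was not matched for length: the median gene had 17169 bp, against 60291 bp for the 9 genes. Abca1 was the 1 gene of the 9 with more peaks in every LPS than every unstimulated replicate, as 9.87% of all genes did, and 0 of 9 had fewer in every replicate (0.192% of all genes). With apoptotic cells Pparg was the 1 of 9 with more (6.57% of all genes), and 0 of 9 had fewer (0.164%). Between LPS and apoptotic cells, 0 of 9 were higher (1.99%) and 0 of 9 lower (1.28%). Per 10000 peaks, 0 of 9 were higher (5.69% of all genes) or lower (3.06%) in every LPS than every unstimulated replicate. The same held for apoptotic cells against unstimulated, with 4.31% and 3.11% of all genes higher and lower, and for LPS against apoptotic cells, with 5.23% and 3.5%. The comparisons with LPS and with apoptotic cells share the unstimulated replicates.

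Leaving out LPS replicate 2, 4 of the 9 genes (Abca1, Rxra, Pparg and Ppard) had more peaks in both remaining LPS replicates than in every unstimulated one, where 25.8% of all genes did. Leaving out unstimulated replicate 3 as well also gave 4 (34.6% of all genes). Without unstimulated replicate 1 they were Abca1 and Abcg1 (14.2% of all genes), and without apoptotic cell replicate 1 both Abca1 and Pparg were above the unstimulated replicates (13.8%). Apoe, with no peak in the apoptotic cell replicates, lay above them in both remaining unstimulated replicates without unstimulated replicate 3 (0.576% of all genes) and in both remaining LPS replicates without LPS replicate 2 (8.30%).

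The median number of peaks over the 9 replicates was 17 for these genes and 9 for all genes. The genes are long, with a median of 60291 bp against 17169 bp over all genes, so the peaks were also compared per 100 kb of window. Averaged over the 9 replicates, Nr1h3 had 3.40 peaks per 100 kb, higher than 93.3% of all protein-coding genes, followed by Pparg (2.95, 88.6%), Ppard (2.35, 77.1%), Abcg1 (1.99, 66.5%), Apoe (1.48, 43.7%), Abca1 (1.12, 26.4%), Mylip (1.07, 23.8%), Nr1h2 (1.00, 20.6%) and Rxra (0.438, 3.82%). For Nr1h3 the density includes a region inside Madd that had a peak in all 9 replicates, and only 2 of the 18 peaks lay inside Nr1h3. No gene differed from the next in this order by more than the SD of the difference over the 9 replicates. The median of the 9 genes was 1.48 peaks per 100 kb and that of all genes 1.61. By condition the medians were 0.997 against 0.806 for all genes without stimulation, 2.33 against 1.96 after LPS, and 1.61 against 1.92 with apoptotic cells. The order of the means also changed with the condition, but differences between genes within a condition were not tested. The Apoe mean after LPS came from 1, 0 and 3 peaks. Without stimulation Nr1h3 was first (3.97, against 1.77 for Pparg), whereas after LPS Ppard (3.07) and Apoe (2.96) lay above Nr1h3 (2.84) and Pparg (2.75). With apoptotic cells Pparg was first (4.33), followed by Nr1h3 (3.40), and Apoe had 0.

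A peak found again at the same place in another replicate is a repeated call. Of the 107 regions, 95 (88.8%) had a peak in 1 replicate only, against 89.7% of all regions. The other 12 regions (11.2%, against 10.3% of all) lay at 6 of the genes, and Nr1h2, Rxra and Mylip had none. Repeated regions, called in 2 or more replicates of 1 condition, numbered 2 without stimulation, 10 for LPS and 4 for apoptotic cells, of which 2, 3 and 3 were in all 3 replicates. All 10 LPS regions had a peak in LPS replicates 1 and 3, which share the narrow class, and 5 of them were in no other replicate. These 2 replicates shared 10 of their 31 regions at the 9 genes, and 24.2% of their regions genome-wide. LPS replicate 2 shared 3 of 25 with replicate 1 and 3 of 32 with replicate 3 (5.63% and 5.10% genome-wide). No region had a peak in all 3 LPS and no unstimulated replicate, nor in all 3 apoptotic cell and no unstimulated replicate. By gene, Nr1h3 and Ppard had a repeated region without stimulation (13.6% of all genes had one), and Abca1, Abcg1, Nr1h3, Pparg, Ppard and Apoe after LPS (48.7%). With apoptotic cells they were Nr1h3, Pparg and Ppard (24.4%). A region in all 9 replicates was present at Nr1h3 and Ppard, as at 4.92% of all genes, and 1372 such regions were found in the genome.

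**Figure D3:**
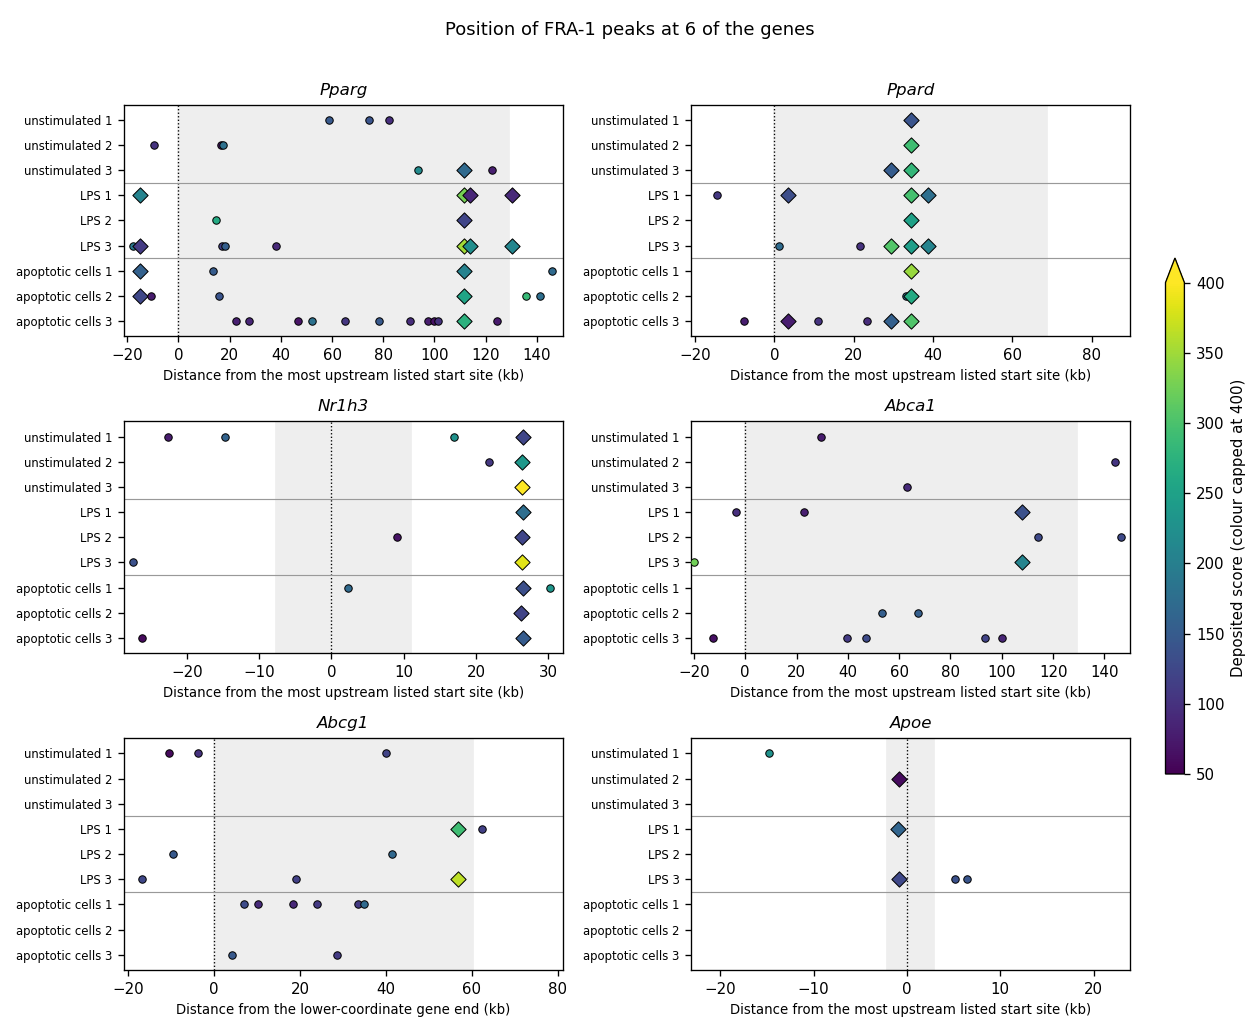
Position of each peak at 6 of the genes, in kb from the most upstream listed start site in the direction of transcription (for Abcg1, from the lower-coordinate gene end), with 1 row per replicate; grey marks the gene body, diamonds regions with peaks in 2 or more replicates, circles the others, and colour the deposited score. Columns of diamonds through all 9 rows appear in Ppard and downstream of Nr1h3, and through 7 rows in Pparg.

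The Ppard region was the most uniform of these. It lay inside the gene at chr17:28267147-28267390, 34393 to 34636 bp downstream of the start site. Its scores were 141, 293 and 282 without stimulation, 297, 251 and 245 after LPS, and 345, 263 and 304 with apoptotic cells. Among the peaks of the same replicate these scores ranked at the 64.9, 97.8 and 92.4 percentile without stimulation, the 93.0, 96.3 and 69.6 percentile after LPS, and the 98.8, 95.5 and 99.0 percentile with apoptotic cells. The peak was thus among the stronger ones of most replicates in all 3 conditions. The mean scores were 239 ± 84.9, 264 ± 28.6 and 304 ± 41.4 (SD, n = 3 each), and the conditions overlapped (exact permutation test, two-sided, p = 0.8 for LPS and p = 0.4 for apoptotic cells against unstimulated, p = 0.2 between them). These p-values carry no correction over the regions compared, and scores were not normalized between replicates.

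The region counted at Nr1h3 lay at chr2:91168553-91169041, inside the neighbouring gene Madd and 15020 bp beyond the 3′ end of Nr1h3. Madd encodes a guanine nucleotide exchange factor with a death domain, and its nearest start site was 10280 bp away. The scores were 124, 237 and 538 without stimulation, 176, 122 and 384 after LPS, and 134, 121 and 150 with apoptotic cells. The highest, in unstimulated replicate 3 and LPS replicate 3, ranked at the 99.5 and 93.1 percentile of their replicates, and the lowest, in apoptotic cell replicate 2, at the 35.4 percentile. The mean scores were 299 ± 214, 227 ± 139 and 135 ± 14.9, and the scores of the conditions overlapped (exact permutation test, two-sided, p = 0.6 for LPS against unstimulated, p = 0.3 for each of the other comparisons).

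The Pparg region at chr6:115472557-115472805, inside the gene and 50491 to 50739 bp downstream of the internal start site, had a peak in 7 of the 9 replicates. Unstimulated replicates 1 and 2 had none and replicate 3 scored 169. The scores were 327, 122 and 352 after LPS and 205, 254 and 273 with apoptotic cells. All 3 apoptotic cell scores thus lay above the single unstimulated one, which is not a comparison of groups. LPS and apoptotic cell scores overlapped, with means of 267 ± 126 and 244 ± 35.4 (exact permutation test, two-sided, p = 0.9). Within the wide class the peak was present in 0 of 2 unstimulated, 1 of 1 LPS and 2 of 2 apoptotic cell replicates, and all 4 narrow replicates had it.

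**Figure D4:**
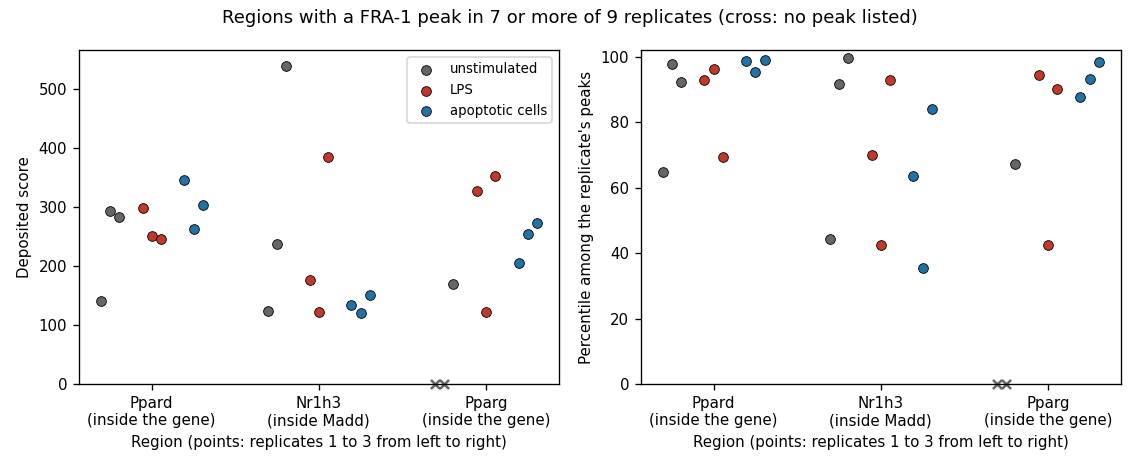
Deposited score (left) and percentile of that score among all peaks of the same replicate (right) at the 3 regions with a peak in 7 or more replicates; each point is a replicate, 1 to 3 from left to right within a condition, and crosses mark no listed peak. In Ppard and Nr1h3 the conditions overlap. In Pparg 2 unstimulated replicates have no peak and the third (169) lies below the 3 apoptotic cell scores (205 to 273).

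Pparg had 3 further repeated regions. That at chr6:115346031-115346370, 14774 bp upstream of the first listed start site, had scores of 207 and 111 in LPS replicates 1 and 3 and of 158 and 124 in apoptotic cell replicates 1 and 2. The unstimulated replicates had none there. The region at chr6:115474940-115475061 inside the gene scored 87.2 and 221 in LPS replicates 1 and 3, and that at chr6:115491428-115491552, 1024 bp beyond the gene, scored 89.9 and 210 in the same replicates. Neither had a peak in another replicate.

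The remaining repeated regions were also in LPS replicates 1 and 3. In Ppard, chr17:28271285-28271507 scored 177 and 208, and the deposited table carries the symbol 1810013A23Rik there, whose start site was 201 bp away. In Abcg1, chr17:31114487-31114602 scored 291 and 365, at the 92.8 and 92.5 percentile of those replicates. In Abca1, chr4:53052066-53052175 scored 137 and 208 and lay 107720 to 107829 bp downstream of the start site. The Apoe region at chr7:19699850-19700324 was the closest of these to a start site of its own gene, 662 bp upstream of the one whose promoter is printed above, though inside the listed gene body. It scored 163 and 125 in LPS replicates 1 and 3 and 60.1 in unstimulated replicate 2, and no apoptotic cell replicate had a peak there. At these Ppard, Abcg1 and Abca1 regions no unstimulated, no apoptotic cell and no other LPS replicate had a peak.

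Peaks in regions seen once ranked lower. Peaks in regions of 1 replicate had a median percentile of 41.9 within their replicate (n = 95 peaks), against 70.1 for peaks in regions of 2 or more replicates (n = 47). The 47 peaks lay in 12 regions, with up to 9 peaks in the same region, so they are not 47 separate places. No such value over all peaks is given here. Of the 142 peaks, 39 (27.5%), 31 of them in regions of 1 replicate, had a score that at least 1000 peaks of the same replicate had. Over all peaks this share was 32.3% to 49.5% per replicate. The rule on the deposited symbol alone would have found 7 of the 142 peaks, 3 at Pparg, 3 at Apoe and 1 at Abcg1.

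By condition, 21 of the 107 regions had peaks only in unstimulated replicates (19.6%, against 18.4% of all regions), 32 only after LPS (29.9%, against 34.02%) and 47 only with apoptotic cells (43.9%, against 40.4%). A further 4 (3.74%, against 2.71%) had peaks in all 3 conditions, 2 (1.87%, against 2.70%) in LPS and apoptotic cells, 1 (0.935%, against 1.21%) in unstimulated and LPS, and 0 in unstimulated and apoptotic cells (0.496% of all regions). The shares followed those of the genome to within a few percentage points.

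Beyond the 9 genes, 45 other genes of sterol synthesis, uptake, lipoproteins and fatty acid handling were examined in the same way. With LPS, 3 of the 45 (6.67%, against the 9.87% of all genes) had more peaks in every replicate than every unstimulated one, among them Fasn (fatty acid synthase) and Scarb1 (the HDL receptor SR-BI). With apoptotic cells 3 of the 45 did (6.67%, against 6.57%), among them Fasn and Plin2, which encodes a lipid droplet coat protein. Per 10000 peaks, 1 of the 45 was higher after LPS, Fasn (2.22%, against 5.69% of all genes). With apoptotic cells 3 were higher (6.67%, against 4.31%), among them Fasn and Plin2. Lower after LPS were 3, Angptl4, Arl4c and Cyp27a1 (6.67%, against 3.06%). Lower with apoptotic cells were 2, among them Angptl4 (4.44%, against 3.11%). Unscaled, Angptl4 had 1, 1 and 2 peaks without stimulation, 1, 1 and 1 after LPS, and 1, 1 and 2 with apoptotic cells. Arl4c had 2, 1 and 2 without stimulation and 2, 1 and 1 after LPS, and Cyp27a1 1, 1 and 1 against 0, 1 and 2. By unscaled number, 0 of the 45 were lower in every LPS (0.192% of all genes) or every apoptotic cell replicate (0.164%) than every unstimulated one. Msr1, which encodes a scavenger receptor, was the 1 of the 45 with fewer peaks in every LPS than every apoptotic cell replicate. This was 2.22%, against 1.28% of all genes. Leaving out 1 replicate gave 4 to 8 of the 45 genes after LPS (8, or 17.8%, without unstimulated replicate 1, where 14.2% of all genes did; 5, or 11.1%, without unstimulated replicate 3, against 16.6%; 6, or 13.3%, without LPS replicate 1, against 16.4%; and 4, or 8.89%, without LPS replicate 2, against 25.8%). With apoptotic cells it gave 3 to 9 (9, or 20%, without apoptotic cell replicate 1, against 13.8% of all genes; 5, or 11.1%, without apoptotic cell replicate 2, against 19.3%; and 5 without unstimulated replicate 1, against 9.96%). Of the 45 genes, 8, 21 and 12 had a repeated region without stimulation, after LPS and with apoptotic cells. These were 17.8%, 46.7% and 26.7% of the 45, against 13.6%, 48.7% and 24.4% of all genes. Neighbouring genes could count the same region. The region of Apoc1 was the repeated Apoe region, Apoc2 and Apoc4 shared a region, and so did Ch25h and Lipa.

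Regions in all 9 replicates lay near 5 of the 45 genes (11.1%, against the 4.92% of all genes), and 2 of these shared 1 region. Those of Apoc2, Apoc4, Arl4c and Angptl4 are described. Near Apoe, the apolipoprotein genes Apoc2 and Apoc4 shared the region chr7:19668029-19668255, which is outside the Apoe window. It scored 227, 219 and 579 without stimulation, 483, 145 and 620 after LPS, and 231, 174 and 248 with apoptotic cells. Arl4c, a small GTPase gene and LXR target, had its region at chr1:88697066-88697316, 909 bp beyond the gene, with scores of 162, 244 and 318 without stimulation, 314, 208 and 470 after LPS, and 255, 308 and 263 with apoptotic cells. Angptl4, a PPAR target that encodes a lipoprotein lipase inhibitor, had its region at chr17:33760955-33761219, 13681 bp from the gene and inside Gm17251. It scored 229, 237 and 498 without stimulation, 458, 307 and 512 after LPS, and 449, 321 and 242 with apoptotic cells. At each of these 3 places the scores of the 3 conditions overlapped.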

How the data were processed

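FRA-1 ChIP-seq of unstimulated, LPS-stimulated and apoptotic cell-treated peritoneal macrophages (n = 3 replicates each) was analysed. The authors aligned reads with BWA (0.7.14) to mm10 (GRCm38) and used bedtools, per the processing notes; the peak caller behind the tables is not given in the sources used here. The paper names MACS2 for its own re-analysis of the reads, mapped with Bowtie2, and does not say whether it made these tables. The authors deposited 3 tables of genomic segments with a peak score per replicate, -1 for no peak, and a gene symbol. Scores were used as deposited. The 3 pooled input samples were not analysed here, and the raw data of 1 LPS sample are stated as missing.

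Adjoining segments of equal score were joined into peaks, and peaks of all 9 replicates that overlapped or touched were merged into regions. Peaks overlapping a RefSeq GRCm38.p6 gene body ± 20 kb by 1 bp, or carrying its symbol, were counted. All 9 genes are named. Their regions are described where at least 2 replicates of a condition had a peak, at most 4 per gene, and of 45 other genes the 5 with the most replicates in their best region; some of the 45 are not reported here. Genes and lists were chosen with earlier results of these data known. A gene was called when replicates did not overlap. Exact permutation tests were two-sided (Python 3.11.15, scipy 1.17.1, pandas 2.3.3). Alternatives were a score minimum of 100, windows of 5 and 50 kb, and the symbol alone. Others were the centre of the peak in the window, a merge gap of 200 bp and each replicate left out. Numbers per 10000 peaks, and leaving out both unstimulated replicate 3 and LPS replicate 2, were chosen after seeing the data. The joining and counting steps were tested on simulated data. Depth is unknown, so no counting intervals are given.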

Additional observations from a re-analysis of the deposited data

How the results depend on the processing

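Of 159 values recomputed for 14 results, 114 stayed close in number or share and 45 moved. A number that stayed did not always count the same gene: the 1 gene higher after LPS was Abcg1 with scores of at least 100 and Ppard with 50 kb, in place of Abca1. For what moved, the cause was not tested except where a narrower rule finds fewer peaks. Genes of the 9 with more peaks in every LPS replicate (1) came to 0 with a 5 kb window, with the deposited symbol alone or per 10000 peaks, to 4 with both unstimulated replicate 3 and LPS replicate 2 left out, and to 1 to 4 leaving out 1 replicate (4 without LPS replicate 2, 2 without unstimulated replicate 1). With apoptotic cells the 1 gene came to 0 with 5 kb, the symbol alone or per 10000 peaks, and to 1 to 2 leaving out 1 replicate. The 0 with fewer came to 1 with both left out, and to 0 to 1 leaving out 1 (1 without unstimulated replicate 3). Genes higher in LPS than apoptotic cells (0) came to 1 with both left out and to 0 to 1 leaving out 1 (1 without LPS replicate 2). The share of peaks at the 9 genes was 0.0242%, 0.0241% and 0.0262% (unstimulated, LPS, apoptotic cells) with 5 kb, 0.0721%, 0.0575% and 0.0614% with 50 kb, and 0.00554%, 0.00125% and 0.000419% by symbol alone. Repeated regions (unstimulated, LPS, apoptotic cells) came to 1, 8 and 2 with 5 kb, 3, 15 and 7 with 50 kb, and 0, 1 and 0 by symbol alone. Of these, the 8 and 15 for LPS and the 3 without stimulation were counted as having stayed close. Leaving out LPS replicate 1 or 3 left 3 of the 10 LPS regions, and the range over left-out LPS replicates was 3 to 10. Of the 45 other genes, those higher after LPS (3) came to 1 with 5 kb (2.22%, against 6.38% of all genes). With 50 kb they came to 10 (22.2%, against 15.5%). By symbol there were 0, and with both left out 6 (13.3%, against 34.6%). Per 10000 peaks there was 1 (2.22%, against 5.69%), and leaving out 1 replicate gave 4 to 8. Those higher with apoptotic cells (3) came to 1 with 5 kb (2.22%, against 3.87%) and 6 with 50 kb (13.3%, against 10.0%). By symbol they came to 0, and leaving out 1 replicate gave 3 to 9. No paired analysis was possible because the columns of the deposited tables do not say which mouse each one holds. Without reads, depth and weak binding below the score minimum of about 50 cannot be examined.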
